A study of Mus musculus with 2 samples.

Results

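The ligand gene Vegfa and 9 genes of blood vessel endothelium, Kdr, Flt1, Pecam1, Cdh5, Tek, Emcn, Egfl7, Plvap and Eng, were followed by amount and by position in 2 mouse ovary sections. They were chosen by name, and all 10 were listed in both sections, among 22204 genes listed in either. Gene expression had been mapped by Slide-seq, in which a frozen tissue section is laid on a layer of beads with position barcodes. The young section came from a C57BL6/J female of 2 months (replicate 3) and the old section from a C57BL6/J female of about 14 months (replicate 1), neither with a genetic change or treatment in the labels. Per the labels' protocols, planes were picked for capture because they held several oocytes, and 2 females of each age were used. With 1 library per age, the age of the mouse cannot be told apart from the animal, the plane or the library, so no difference between the ages was tested, and every 95% interval covers counting error only.

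The protein made from Vegfa is secreted by tissue cells and acts on receptors of nearby endothelial cells, which sprout and divide in response. In the ovary, vessels are remodelled with each cycle. A growing follicle carries vessels in its theca, the granulosa layer inside it has none until ovulation, and the corpus luteum that forms afterwards is among the most vascular of tissues. Of the vessel genes, Kdr encodes the main signalling receptor for the ligand and Flt1 a receptor that binds it tightly and can act as a trap. Tek encodes the angiopoietin receptor, Eng a co-receptor for growth factors of the TGF-beta family, Cdh5 and Pecam1 cell junction proteins, Emcn a surface sialomucin, Plvap the diaphragm protein of fenestrated capillaries, and Egfl7 a protein that endothelial cells secrete.

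The young section held 5158314 counts on 21403 beads and the old section 2348768 counts on 10267 beads, with medians of 153 and 125 counts per bead, and no bead barcode was shared. Levels are given as CPM, the counts of a gene per 1000000 counts of the section or region. A bead covers a spot that can hold parts of several cells, and fewer cells of a type and less RNA per cell cannot be told apart. The 9 vessel genes were found together, as their label says: on beads with a count of any vessel gene, the level of the other 8 was 4.84 times that around any count in the young section and 5.07 times in the old.

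The bases just before the start are shown for 3 of the genes, the ligand and 2 vessel genes with higher levels in the old section. These are the members for which a window before the outermost annotated start was given. Kdr and Flt1, also higher in the old section, had windows at inner starts only. Vegfa lies on chromosome 17 from 46016993 to 46032377, Egfl7 on chromosome 2 from 26581083 to 26592682, and Eng on chromosome 2 from 32646595 to 32682669 (RefSeq, GRCm38.p6, the assembly behind mm10). Each sequence gives the 250 bases before the outermost annotated start, 5′ to 3′ on the gene's strand, at chr17:46032378-46032627 (minus strand), chr2:26580833-26581082 (plus strand) and chr2:32646345-32646594 (plus strand). Capitals mark the GC-box core GGGCGG in Vegfa and the ETS-type motif AGGAAG, or its reverse complement CTTCCT, in the vessel genes.
Vegfa: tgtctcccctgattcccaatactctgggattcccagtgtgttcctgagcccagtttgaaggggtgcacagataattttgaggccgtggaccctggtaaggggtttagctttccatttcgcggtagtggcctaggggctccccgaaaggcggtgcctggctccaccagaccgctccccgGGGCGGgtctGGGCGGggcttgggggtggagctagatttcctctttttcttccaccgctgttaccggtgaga
Egfl7: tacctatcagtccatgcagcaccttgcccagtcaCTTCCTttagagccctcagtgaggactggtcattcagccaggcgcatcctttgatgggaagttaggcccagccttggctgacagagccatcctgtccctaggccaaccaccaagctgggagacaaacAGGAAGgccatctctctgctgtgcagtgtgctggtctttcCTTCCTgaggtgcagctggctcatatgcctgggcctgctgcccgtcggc
Eng: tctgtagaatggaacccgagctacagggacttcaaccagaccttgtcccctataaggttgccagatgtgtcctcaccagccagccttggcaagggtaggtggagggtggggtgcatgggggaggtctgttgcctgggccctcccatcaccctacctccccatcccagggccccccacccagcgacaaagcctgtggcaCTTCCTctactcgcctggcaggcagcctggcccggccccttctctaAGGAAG
The search covered both strands, and no match of one of the motifs overlapped a match of another. Vegfa held 2 GC-box cores in this window and no AGGAAG, Egfl7 held 3 AGGAAG and Eng 2, and neither of these vessel gene windows held GGGCGG. The motifs do not divide the ligand from the vessel genes: the window of Kdr held 2 GGGCGG and no AGGAAG, that of Flt1 3 GGGCGG and 2 AGGAAG, and that of an inner Egfl7 start 4 GGGCGG and no AGGAAG. Windows were given for 7 of the 10 genes, and 5 of the 8 windows of vessel genes held AGGAAG. Over 32851 windows of this length, 29.5% held AGGAAG, 32.7% GGGCGG and 16.6% ACGTG, the core of the hypoxia response element, which was absent from the Vegfa window shown and present once in the window of an inner Vegfa start. These matches describe letters and are not measured sites. The other genes lie on chromosome 5 (Kdr, 75932827 to 75979072; Flt1, 147561604 to 147726438), chromosome 11 (Pecam1, 106654213 to 106715281), chromosome 8 (Cdh5, 104101613 to 104144504; Plvap, 71497753 to 71511806), chromosome 4 (Tek, 94739086 to 94874976) and chromosome 3 (Emcn, 137341062 to 137431069).

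Vegfa was far higher in the old section. It had 265 counts, or 51.4 CPM (45.4 to 57.9), in the young section and 587 counts, or 249.9 CPM (230.1 to 271), in the old. The ratio was 4.86 (4.20 to 5.65), and only 206 of the 12586 genes with at least 20 counts in 1 section, 1.64%, had a higher one. It was 2.83 (2.34 to 3.42) when the old bins richest in a list of ovulation genes, mostly Adamts1 by count, were left out. All young bins were kept in this step, which is described with the positions. The beads with Vegfa numbered 252 (young), with at most 2 counts each, and 454 (old), with up to 10 counts each. A higher level alone raises the counts per bead, so this does not show clustering.

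The receptors for the ligand were higher too, by less over the whole sections. Kdr had 100 counts (19.4 CPM, young) and 110 counts (46.8 CPM, old), a ratio of 2.42 (1.83 to 3.20). Flt1 had 109 counts (21.1 CPM) and 110 counts (46.8 CPM), a ratio of 2.22 (1.68 to 2.92). The proportion between both receptors stayed close, at 109 (young) and 100 (old) Flt1 counts per 100 Kdr counts, with a ratio of 0.917 (0.617 to 1.36). Eng, the co-receptor, had 38 counts in each section, which at the old section's smaller total gave 7.37 and 16.2 CPM and a ratio of 2.20 (1.36 to 3.54). With the bins richest in that Adamts1-led list left out of the old section only, the ratios were 3.27 (2.42 to 4.44) for Kdr and 3.16 (2.34 to 4.29) for Flt1. Both intervals overlap that of Vegfa. Those bins were high in Vegfa and low in both receptors, so this shift follows from leaving them out. Tek did not share this pattern, with 53 counts (10.3 CPM, young) and 19 counts (8.09 CPM, old) and a ratio of 0.787 (0.440 to 1.35).

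The junction and surface genes did not move together. Cdh5, which encodes the cadherin of endothelial junctions, had 159 counts (30.8 CPM) and 75 counts (31.9 CPM), a ratio of 1.04 (0.776 to 1.37). Pecam1 had 88 counts (17.1 CPM) and 55 counts (23.4 CPM), a ratio of 1.37 (0.962 to 1.94). Emcn had 47 counts (9.11 CPM) and 17 counts (7.24 CPM), a ratio of 0.794 (0.428 to 1.41). The intervals of these 3 genes include 1, so neither a difference nor its absence is shown. Plvap, the fenestrated capillary gene, was the 1 member with an interval below 1, with 86 counts (16.7 CPM, young) and 18 counts (7.66 CPM, old) and a ratio of 0.460 (0.260 to 0.770).

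Egfl7, which endothelial cells secrete, had the highest ratio of the vessel genes, with an interval that overlaps that of Kdr. It had 212 counts (41.1 CPM, young) and 304 counts (129 CPM, old), a ratio of 3.15 (2.63 to 3.77), and its share of all vessel counts was 23.8% (young) and 40.8% (old). Measured against Cdh5, Egfl7 had 133 counts per 100 (young) and 405 per 100 (old), a ratio of 3.04 (2.17 to 4.27). On the same measure Kdr had a ratio of 2.33 (1.56 to 3.49), Flt1 of 2.14 (1.44 to 3.19), Eng of 2.12 (1.21 to 3.71) and Plvap of 0.444 (0.234 to 0.811). The make-up of the vessel counts therefore differed between the sections, whatever the scaling of their totals.

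By size alone, 5 of the 10 members (Vegfa, Kdr, Flt1, Egfl7 and Eng) were at least 1.5-fold higher in the old section and 1 (Plvap) at least 1.5-fold lower. Of all 12586 genes, 22.6% were higher and 25.4% lower by that size, and 1.85% were at least 4.5-fold higher. The share of members that were higher lay above the background share, and the median ratio of the 9 vessel genes, 1.37, stood beside 0.988 over all genes.

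Over the whole sections, the ligand differed more than the sum of the vessel genes did. Summed, the 9 vessel genes had 892 counts (172.9 CPM, young) and 746 counts (318 CPM, old), a ratio of 1.84 (1.66 to 2.03), or 1.43 (1.26 to 1.61) without Egfl7. Per 100 vessel counts there were 29.7 of Vegfa (young) and 78.7 (old), a ratio of 2.65 (2.22 to 3.17) that does not depend on section totals. Against single vessel genes the ratio ran from 1.54 (1.22 to 1.95) per Egfl7 count to 10.6 (6.15 to 19.0) per Plvap count. Without the old bins richest in the ovulation list, described below, and with all young bins kept, the ratio per vessel count was 1.20. No interval is given for this value, so it does not show whether the ligand still differed more than the vessel sum. With those bins left out, Egfl7 was at 4.19 (3.45 to 5.11), Kdr at 3.27, Flt1 at 3.16 and Vegfa at 2.83. The bins left out were high in Vegfa and low in these vessel genes, so the shift follows from leaving them out.

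**Figure D1:**
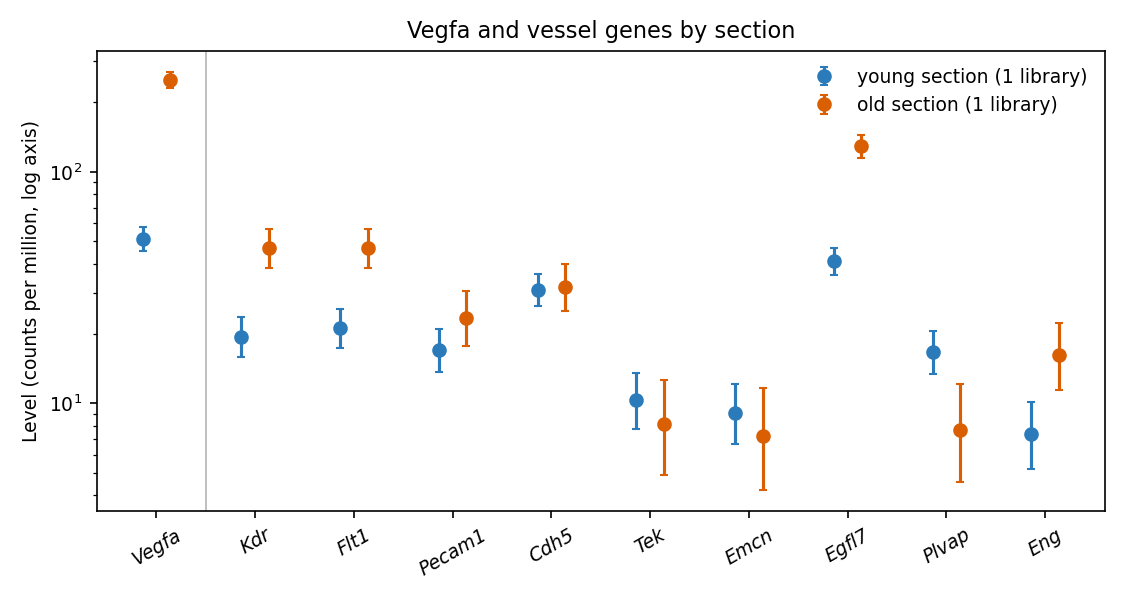
Levels of Vegfa and the 9 vessel genes (CPM, log axis) in the young section (blue) and the old section (orange), 1 library each; bars are exact 95% Poisson intervals for counting error. Vegfa stands at 51.4 and 249.9 CPM and Egfl7 at 41.1 and 129 CPM, Cdh5 is close to level at 30.8 and 31.9 CPM, and Plvap is lower in the old section at 16.7 and 7.66 CPM.

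Other genes of the pathway lay on both sides, in shares near those of all genes. Of 28 genes listed for VEGF and angiopoietin signalling, 23 were measured (at least 20 counts in 1 section). Of these, 7 were at least 1.5-fold higher and 6 at least 1.5-fold lower in the old section, with a median ratio of 1.12. Of all 12586 genes, 22.6% were higher and 25.4% lower by that size. Apln, which encodes the vessel-directed peptide apelin, had 5 counts (young) and 86 counts (old), a ratio of 37.8 (15.6 to 119). Notch4, an endothelial Notch receptor, had a ratio of 2.54 (1.31 to 4.97) and the apelin receptor gene Aplnr of 1.95 (1.08 to 3.51). Angptl4, a secreted inhibitor of lipoprotein lipase, was the most abundant by count in the old section, with 227 and 418 CPM and a ratio of 1.84 (1.69 to 2.00). At the other end stood the semaphorin gene Sema3c at 0.194 (0.154 to 0.241), the lymphatic growth factor gene Vegfd at 0.372 (0.170 to 0.734) and Angpt2, a Tek ligand released where vessels are remodelled, at 0.472 (0.318 to 0.683). Thbs1, which encodes an angiogenesis inhibitor and led the list in the young section, had a ratio of 0.608 (0.536 to 0.687).

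A second list of 26 endothelial genes, which holds none of the 9, had more higher than lower genes. By the same size rule 12 of 23 measured genes were higher and 5 were lower, beside 22.6% and 25.4% of all genes. The measured genes had a median ratio of 1.53, and the list had a summed ratio of 1.38 (1.29 to 1.47). Cd34, a sialomucin of endothelial and progenitor cells, had 35.3 and 175 CPM, which is a ratio of 4.97 (4.17 to 5.95). Without Cd34 the list had a summed ratio of 1.09 (1.02 to 1.17). Adgrl4, an endothelial adhesion receptor, had a ratio of 3.06 (2.06 to 4.56) and Podxl of 2.36 (1.80 to 3.11). Lower were the arterial connexin gene Gja4 at 0.331 (0.158 to 0.628), Vwf at 0.430 (0.185 to 0.888) and Sox18 at 0.507 (0.373 to 0.678). The tight junction gene Cldn5, the most abundant by count in the young section, had a ratio of 0.775 (0.628 to 0.951).

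The summed lists for cell types and responses differed widely between the planes along with Vegfa, and the part of cell make-up in the ratios was not tested. Higher in the old section, as Vegfa was, were the list of periovulatory genes, at 53.7 (46.4 to 62.6), and the surface epithelium list, at 4.72 (4.27 to 5.22). Lower were the oocyte list at 0.0757 (0.0691 to 0.0828), the theca list at 0.134 (0.128 to 0.140) and the granulosa list at 0.242 (0.235 to 0.248). The luteal list was at 1.42 (1.41 to 1.44), the stromal fibroblast list at 1.12 (1.09 to 1.16) and the smooth muscle list at 1.08 (1.04 to 1.13). The red blood cell list had a ratio of 1.06 (0.999 to 1.13), the pericyte list of 1.21 (1.07 to 1.35), the macrophage list of 0.945 (0.899 to 0.994) and the lymphatic list of 0.549 (0.486 to 0.619). By size, 3 of the 5 measured lymphatic genes were lower and 1 higher, beside 25.4% and 22.6% of all genes. The hypoxia response list had a ratio of 2.02 (1.96 to 2.08). By size, 14 of its 22 measured genes were higher and 0 lower, beside 22.6% and 25.4% of all genes. Among the higher were Ankrd37 at 10.54 (5.27 to 23.4), the stress gene Ddit4 at 8.82 (7.67 to 10.2) and the glycolysis gene Pgk1 at 5.11 (3.66 to 7.22). The lowest of the list were Higd1a at 0.756 (0.618 to 0.920), Pdk1 at 0.904 (0.635 to 1.27) and Kdm3a at 0.989 (0.773 to 1.26), and Aldoa, the most abundant, had a ratio of 1.95 (1.83 to 2.07).

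Vegfa was spread through the young section and gathered in patches in the old. Quadrants were cut at the median x and the median y of the beads, and they are parts of 1 section, not replicates. In the young section Vegfa had 55.6, 55.1, 43.1 and 47.3 CPM in the quadrants of low x and low y, low x and high y, high x and low y, and high x and high y. The old section had 308, 203, 307 and 124 CPM in the same order, so every old quadrant lay above every young one. The vessel sum ran the other way within the old section, at 265, 364, 263 and 432 CPM, with its lowest values in the 2 quadrants where Vegfa was highest. The periovulatory list, genes induced in follicles by the ovulatory surge and led by the matrix protease gene Adamts1, had 3040, 227, 3206 and 256 CPM in those quadrants. Adamts1 made up 78.9% of the list's 4526 counts in the old section, so bins high in the list are mainly high in Adamts1. Ptgs1 came next with 701 counts. The rest ran from 1 count (Has2) to 88 counts (Edn2), with Pgr at 2, Areg at 3 and Ptgs2 at 32. The list's surge genes other than Adamts1 therefore mark these bins little. Of the 12 genes of the list, 7 had at least 20 counts in 1 section.

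**Figure D2:**
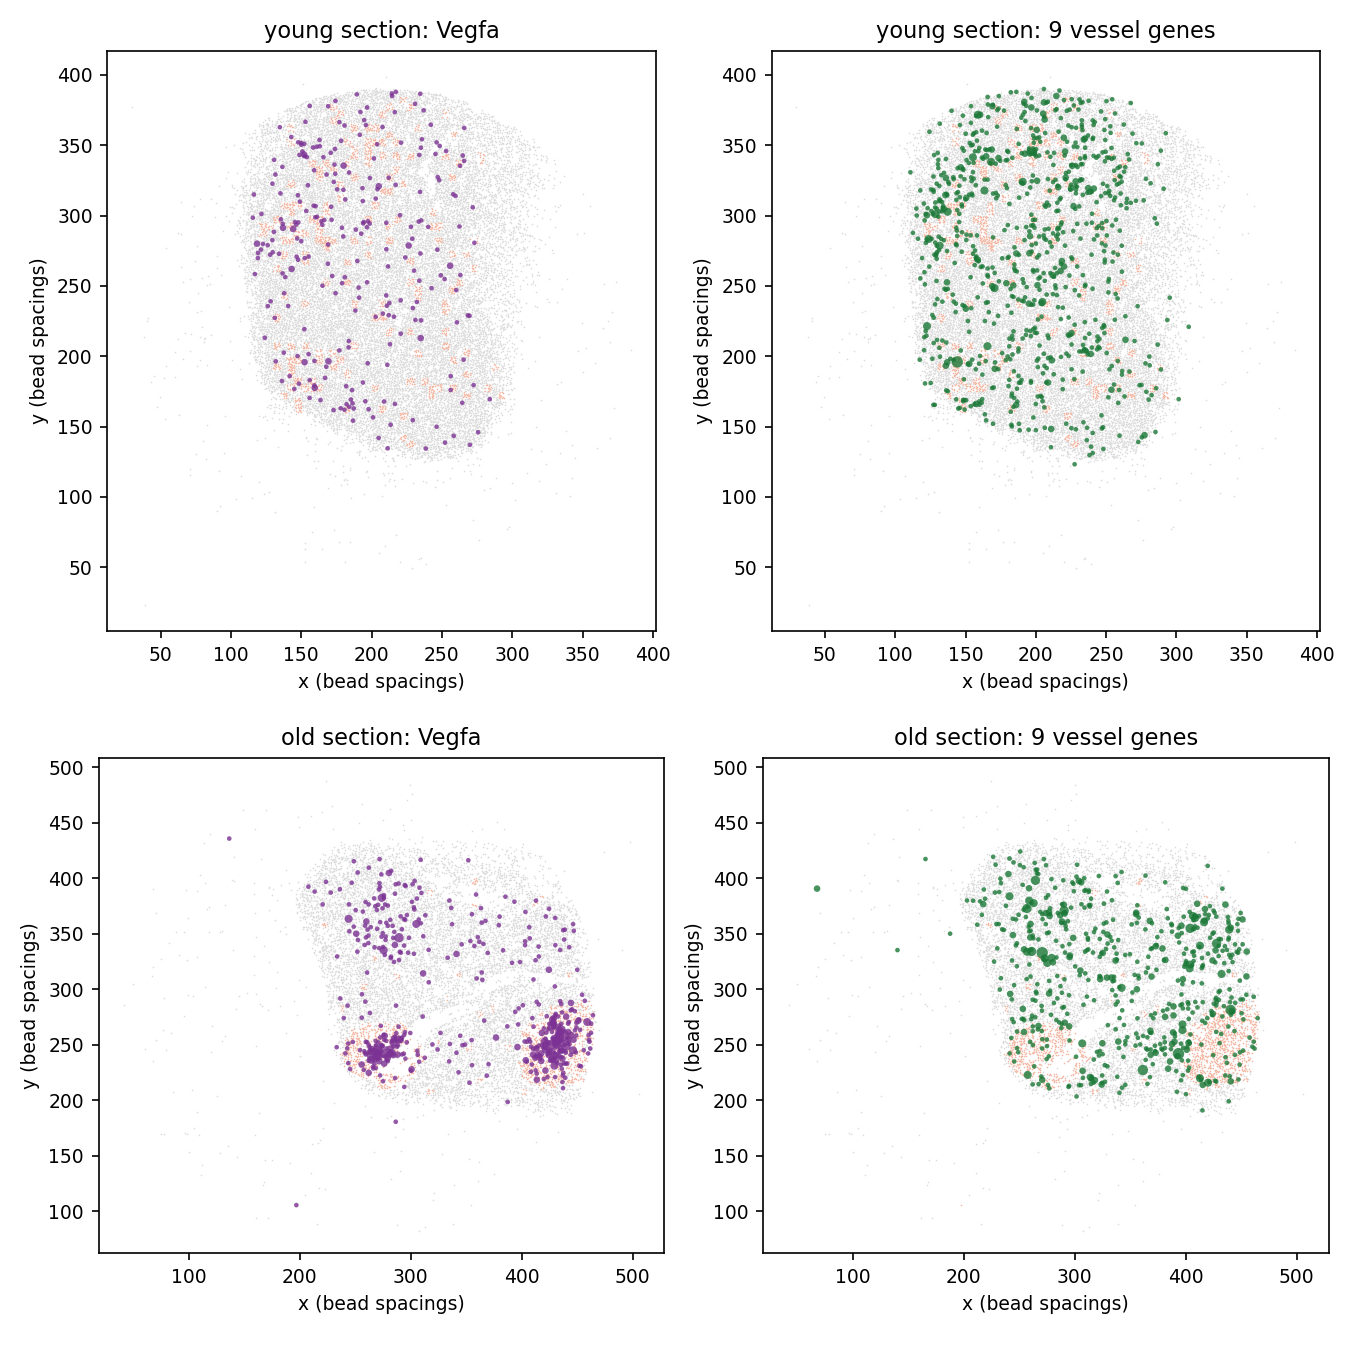
Position of counts in the young section (top) and the old section (bottom), with x and y in bead spacings; coloured dots are beads with Vegfa (purple, left) or with any of the 9 vessel genes (green, right), dot area scales with the count, grey dots are other beads, and salmon dots are beads in bins high in the periovulatory list. Of the old section, 62.0% of the binned Vegfa counts lie in the salmon bins, which hold 33.1% of all counts and 13.1% of the vessel counts.

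To compare positions, each section was divided into square bins of 5 bead spacings, of which 1589 (young) and 1419 (old) had at least 500 counts. The spacing was 12.5 position units (young) and 9.88 (old). That unit is not named, so bins and distances may cover unlike lengths in the 2 sections. For each gene list, the fifth of bins with the highest share of it was set against the other bins, and a bin without a count of the list was never called high. Bins are not replicates, and their comparison is a description of each section.

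In the old section, Vegfa was high where the vessel genes were low. In bins high in the periovulatory list it had 353 of its 569 binned counts, at 486 CPM against 147 elsewhere, a ratio of 3.31 (2.79 to 3.94). The vessel sum had 124 CPM there against 406, a ratio of 0.306 (0.242 to 0.382), or 0.518 without the quadrant of high x and low y. Kdr was at 0.152 (0.0596 to 0.327), Flt1 at 0.264 (0.132 to 0.484), Egfl7 at 0.261 (0.175 to 0.379), Eng at 0.349 (0.106 to 0.912) and Pecam1 at 0.456 (0.194 to 0.954) of their level elsewhere, while Tek had 0 counts there and 18 elsewhere. Cdh5, with 19 and 50 counts, had a ratio of 0.769 (0.428 to 1.33) and Plvap, with 5 and 11 counts, of 0.920 (0.251 to 2.87), both with intervals that include 1. Vegfa thus had 392 counts per 100 vessel counts in these bins and 36.2 elsewhere, a ratio of 10.8 (8.12 to 14.5). Of the 33 old bins with at least 4 Vegfa counts, 30 were high in the periovulatory list, and 30 were high in the hypoxia list. These bins were deep, with a mean of 4633 counts, beside 1282 in old bins with 0 Vegfa counts, and the part of depth was not tested. The young section held 1 bin with at least 4 Vegfa counts. The largest number in a bin was 4 (young) and 15 (old).

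Most of these bins lay in 2 patches, at low and at high x. Adjoining bins high in the periovulatory list were joined into 23 groups, and the 2 groups of at least 30 bins, of 108 and 153 bins, were taken as patches after the maps had been seen. With the gaps inside them filled, they covered 263 bins and held 351 of 569 Vegfa counts (61.7%), 82 of 686 vessel counts and 32.3% of all counts. Within each patch, bins more than 2 bins deep form the core and the outer 2 bins the rim.

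The ligand was concentrated in the cores of both patches. In the patch at high x it had 704 CPM in the core (172 counts) and 211 in the rim (50 counts), a ratio of 3.34 (2.42 to 4.67). In the patch at low x it had 931 CPM (97 counts) and 257 CPM (32 counts), a ratio of 3.63 (2.41 to 5.59). The periovulatory list that defined the patches had 5569.9 and 5232 CPM in core and rim of the first patch and 6274 and 5668 CPM in the second. With both patches joined, the ratio of Vegfa was 3.40 (2.65 to 4.41), and it was 1.77 with bins of 3 bead spacings, 1.80 when the tenth of bins was taken and 2.45 with a list without Adamts1.

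Vessel genes were lower in the cores than in the rims. Their sum had 49.1 CPM in the core, 148 in the rim and 576 in the 3 bins outside at the patch at high x, and 95.9, 200.4 and 376 CPM at the patch at low x. The ratio of core to rim was 0.333 (0.157 to 0.656) in the first and 0.479 (0.205 to 1.03), an interval that includes 1, in the second. With the core set deeper than 3 bins the joined ratio was 0.662 in place of 0.380 (0.222 to 0.629). In both cores together, Flt1, Pecam1, Tek and Emcn had 0 counts, Kdr, Plvap and Eng 1 count each, Cdh5 7 counts and Egfl7 12 counts, beside 269 counts of Vegfa. At this depth, 348414 counts, a count of 0 allows up to 8.61 CPM, so the outside level of 63.3 CPM for Flt1 lay above that limit. Beside these values, the red blood cell list had 40.2 CPM in the cores, 1261 in the rims and 1186 in the 3 bins outside, and the macrophage list 86.1, 174 and 779 CPM. The smooth muscle list had 221, 727 and 3123 CPM in the same order.

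**Figure D3:**
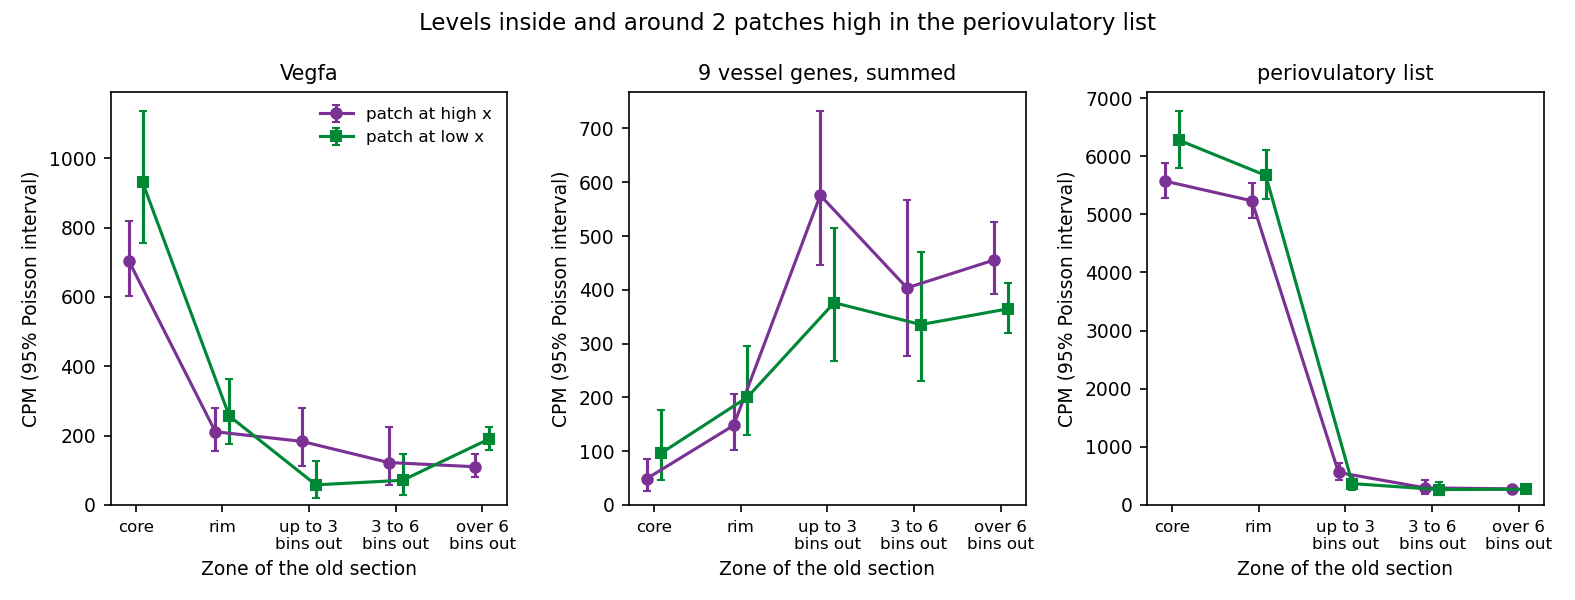
Levels (CPM) of Vegfa, the 9 vessel genes summed and the periovulatory list in 5 zones of the old section, for the patch at high x (purple circles) and the patch at low x (green squares); bars are exact 95% Poisson intervals for counting error, and zones outside hold the bins nearest each patch. Vegfa falls off between core and rim (704 to 211 and 931 to 257 CPM), while the periovulatory list falls off only outside the rim and the vessel genes are lowest in the core.

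Hypoxia response genes shared the gradient of Vegfa. The list had 7798 CPM in the cores, 4412 in the rims and 1919.9 outside, and the ratio of core to rim was 1.77 (1.66 to 1.88). Of 21 genes of the list with at least 20 counts in core and rim together, 15 had a core-to-rim interval above 1 and 0 had one below. Of all 6421 genes with as many counts in both zones, 5.67% had an interval above 1 and 6.56% one below, and the median ratio was 0.991. Bnip3, a mitochondrial protein gene, had 517 and 194 CPM in core and rim, a ratio of 2.67 (2.01 to 3.57), and Ddit4 had 1263 and 653 CPM, a ratio of 1.93 (1.65 to 2.28). Hif1a, the transcription factor gene, had 289.9 and 324 CPM, and its protein is regulated mainly after translation. Depth also differed, with a median of 2724 counts per bin in the cores, 2169 in the rims and 1206 in the 3 bins outside, and its part in these values was not tested.

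Cd34 was high in the patches, unlike the vessel genes, and did not have the core-to-rim gradient of Vegfa. It had 448 CPM in the cores, 396 in the rims and 68.7 outside. The ratio of core to rim was 1.13 (0.896 to 1.43), and the ratio of core to outside was 6.52 (5.05 to 8.45). The other 25 genes of its endothelial list had a ratio of 0.159 (0.110 to 0.222) over the same zones, close to the vessel sum at 0.155 (0.0966 to 0.237).

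Outside the bins high in the periovulatory list, a contrast added after the data were seen, Vegfa had its highest ratio with the luteal list, and no other list had an interval above 1. The 279 remaining old bins high in the luteal list, genes of steroid-forming cells of the corpus luteum, had 104 counts and 251 CPM of Vegfa, against 106 CPM in the other 857 bins. The ratio was 2.36 (1.79 to 3.11), beside 0.9498 (0.760 to 1.18) when all old bins were compared. The vessel sum in these luteal bins was 313 against 442 CPM, a ratio of 0.708 (0.579 to 0.862). The young section had a like preference of Vegfa for luteal bins, at 80.5 against 46.1 CPM, a ratio of 1.75 (1.31 to 2.31). The hypoxia list did not mark Vegfa outside the periovulatory bins, with a ratio of 0.806 (0.433 to 1.38) in place of 3.40 (2.87 to 4.03) over all old bins. The vessel sum had ratios of 1.37 (1.04 to 1.79) and 0.469 (0.380 to 0.575) in the same comparisons. The periovulatory and hypoxia lists marked many of the same old bins, 187 of 283 for each.

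In the young section the ratios of Vegfa over the lists ran over a narrower range than in the old section. Its highest levels were in bins high in the theca list, at 83.1 against 46.4 CPM, a ratio of 1.79 (1.33 to 2.39), and in the luteal bins above. These are largely the same bins, since 194 of the 317 bins of each list (61.2%) were shared. It was lower in macrophage bins, at 0.670 (0.442 to 0.983), and in surface epithelium bins, at 0.726 (0.520 to 0.997), which turned to 1.12 when the tenth of bins was taken. Ratios in granulosa, oocyte, pericyte, smooth muscle and endothelial bins ran from 0.940 to 1.15, and that in hypoxia bins was 1.29 (0.961 to 1.72), all with intervals that include 1. The theca list was 95.1% Aldh1a1 in this section, a retinoid enzyme gene, so these bins are better called high in Aldh1a1. The old section's theca bins had 96.9 against 287 CPM, a ratio of 0.338 (0.227 to 0.485), or 0.829 with a list without Aldh1a1. Old theca bins over young theca bins gave 1.17 (0.734 to 1.82) for Vegfa, an interval that includes 1.

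The vessel genes were high with the same vessel and wall lists in both sections and low in granulosa and oocyte bins. In bins high in the second endothelial list their sum was 437 against 128 CPM in the young, a ratio of 3.42 (2.97 to 3.93), and 653 against 246 CPM in the old, a ratio of 2.66 (2.26 to 3.12). In smooth muscle bins the ratios were 2.31 (1.98 to 2.69) and 2.17 (1.83 to 2.57), in pericyte bins 2.06 (1.77 to 2.38) and 1.64 (1.38 to 1.94), and in stromal fibroblast bins 1.74 (1.47 to 2.04) and 1.64 (1.38 to 1.95). Granulosa bins were low in vessel genes, at 0.512 (0.425 to 0.613) and 0.710 (0.579 to 0.865), as were oocyte bins, at 0.739 (0.618 to 0.879) and 0.539 (0.386 to 0.735). Per 100 vessel counts, old granulosa bins had 143 of Vegfa against 69.9 in the other bins, a ratio of 2.05 (1.56 to 2.70). In the young section this ratio was 1.84 (1.30 to 2.57). Outside the periovulatory bins, the CPM of Vegfa in old granulosa bins was 1.29 (0.929 to 1.76) times that elsewhere, an interval that includes 1. In macrophage bins the vessel sum was 1.20 (1.01 to 1.43) in the young, or 0.971 with bins of 8 bead spacings, and 1.84 (1.53 to 2.20) in the old section.

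Plvap had the highest ratio of the 9 vessel genes over the lists compared in the young section. It had 48 of 83 binned counts in bins high in the second endothelial list, at 66.8 against 8.03 CPM, a ratio of 8.32 (5.27 to 13.3). It had 1 count in granulosa bins and 82 elsewhere. Its ratio was 4.70 (2.95 to 7.42) in smooth muscle bins and 3.34 (2.07 to 5.31) in theca bins. In the old section, 16 binned counts are too few to place it, and its ratio in smooth muscle bins was 4.08 (1.29 to 12.3). Kdr stood on opposite sides: in surface epithelium bins it had 5.88 against 23.4 CPM in the young and 81.7 against 39.2 CPM in the old section. This difference between sections was not tested. Outside the periovulatory bins the old levels of Kdr were 85.3 against 57.8 CPM, a ratio of 1.47 (0.893 to 2.36), an interval that includes 1.

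**Figure D4:**
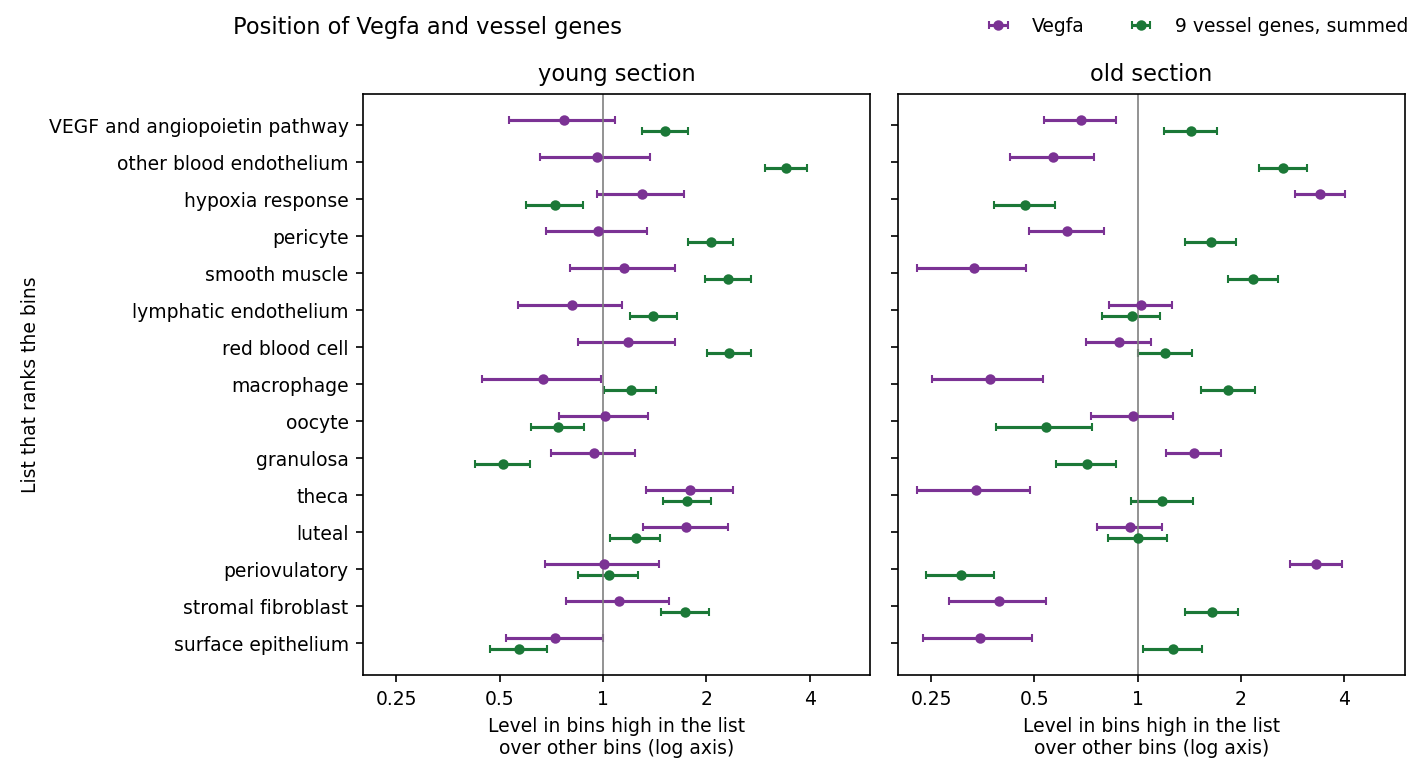
Level of Vegfa (purple) and of the 9 vessel genes summed (green) in bins high in each gene list over their level in the other bins (log axis), for the young section (left) and the old section (right); bars are exact 95% intervals for counting error. In the old section the periovulatory and hypoxia lists set Vegfa (3.31 and 3.40) apart from the vessel genes (0.306 and 0.469), and in the young section the vessel genes are highest with the second endothelial list (3.42).

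For the 9 vessel genes, distances between beads gave the same contrast without bins. The vessel level on beads around each Vegfa count was divided by that around any count. In the young section this was 1.40 on the same bead, from only 20 vessel counts, and 1.34 up to 3 bead spacings. Farther out it was 1.20 at 3 to 6, 1.06 at 6 to 12 and 1.01 at 12 to 24. Old values were 0.539, 0.482, 0.571, 0.611 and 0.698. The second endothelial list, which holds Cd34, was nearer to 1 around Vegfa. On the same bead, up to 3 and at 3 to 6 bead spacings it was at 1.06, 1.04 and 0.997 (young). Old values of that list were 0.850, 0.918 and 0.885. Around counts of the other 8 vessel genes the vessel level was 2.28 (young) and 2.24 (old) up to 3 bead spacings. Vegfa around itself was 4.60 (young) and 2.75 (old) on the same bead. It was 1.73 up to 3 bead spacings and 1.11 at 6 to 12 (young), against 1.76 and 1.72 at the same distances (old). Bins of the old section with 0, 1 and at least 2 Vegfa counts had vessel levels of 382, 253 and 110 CPM, and young bins had 174, 157 and 161 CPM. The deeper bins of each section hold more Vegfa counts, with means of 1282, 2015 and 3342 counts per bin in the old section.

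**Figure D5:**
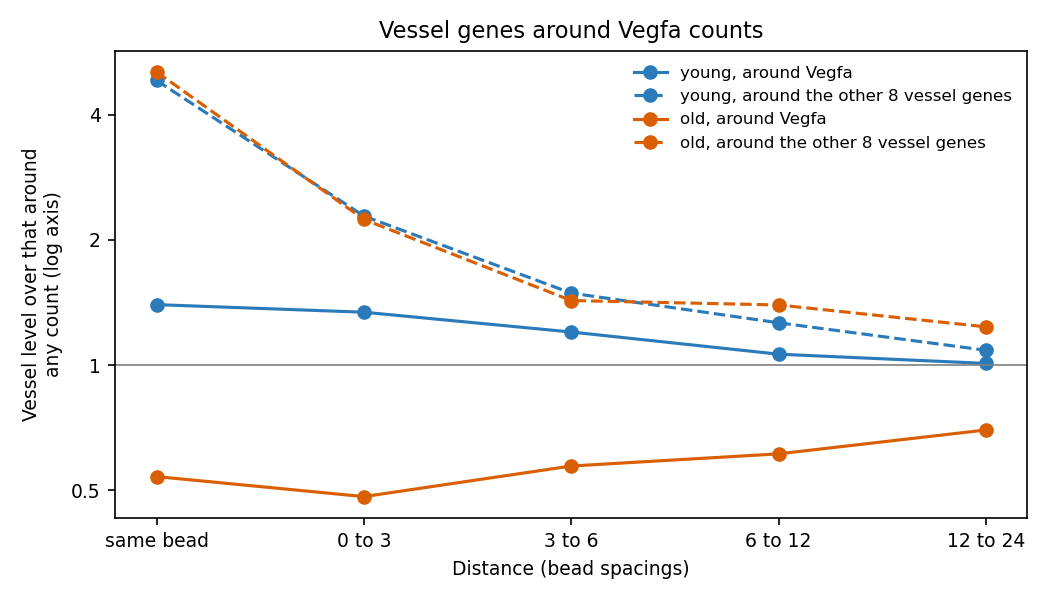
Level of the vessel genes around Vegfa counts (solid) and around counts of the other 8 vessel genes (dashed), divided by the level around any count (log axis), against distance in bead spacings, for the young section (blue) and the old section (orange). Around Vegfa the young section lies between 1.01 and 1.40 and the old section below 1 at every distance (0.482 to 0.698), while the dashed lines of both sections nearly coincide up to 3 to 6 bead spacings.

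Distance from the tissue edge was compared in each section. Between the third of bins nearest the edge and the third farthest from it, Vegfa had 53.8 and 59.1 CPM in the young section, a ratio of 0.910 (0.659 to 1.25), and 141 and 239 CPM in the old, a ratio of 0.591 (0.453 to 0.767). The vessel sum had 163 and 232 CPM in the young section, a ratio of 0.703 (0.591 to 0.834), and 313 and 358 CPM in the old, a ratio of 0.873 (0.722 to 1.05). The young vessel gradient was steepest for Plvap, with 11 outer and 56 inner counts and a ratio of 0.207 (0.0979 to 0.400), and the old one for Flt1, with 16 and 47 counts and a ratio of 0.355 (0.188 to 0.637).

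Genes with the pattern most like each target were ranked by Pearson's r over bins of 10 bead spacings, 436 (young) and 459 (old), which share library and depth, so r is a description. Like Vegfa in the old section were Nr5a2 (0.39), Vcan (0.39), Runx2 (0.38), Aif1l (0.37), Rnf180 (0.37), Fkbp5 (0.37), Lgr4 (0.37) and Ephx2 (0.36), among 2611 genes with a median of 0.06. Vcan encodes a matrix proteoglycan and Runx2 and Nr5a2 encode transcription factors of granulosa cells, and Adamts1 ranked 20 at 0.33. In the young section the values for Vegfa were weak, with Scap (0.24), Adipor2 (0.22), the LH receptor gene Lhcgr (0.21), Chst11 (0.21), Msmo1 (0.21), Gabpb2 (0.21), Wnk1 (0.20) and Ctnna1 (0.20). Like the vessel sum were Aldh1a1 (0.43), Gas6 (0.38), Adh1 (0.37), Cyp11a1 (0.36), Hbb-bs (0.36), Cldn5 (0.35), Tcaf1 (0.34) and Gstm1 (0.34) in the young section. Their old counterparts were Igfbp7 (0.39), Ctla2a (0.27), and the muscle and collagen genes Acta2 (0.26), Tpm2 (0.25), Col3a1 (0.25), Myh11 (0.24) and Col1a1 (0.23), with Fth1 (0.24). Between Vegfa and the vessel sum r was 0.09 (young) and -0.13 (old). With bins of 8 or 15 bead spacings, 0 to 5 of each 8 genes stayed among the first 8, and r this small names no relation.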

How the data were processed

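Slide-seq counts of 2 ovary sections were analysed as the authors deposited them: whole-number counts per gene and bead barcode, with bead positions in a unit the files do not name. Reads had been mapped to mm10, per the submitters' processing notes; for the aligner, counting tool and annotation, versions and names were not given in the sources used here. Every deposited bead carried at least 10 counts.

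Counts were summed over beads or bins and divided by all counts there (CPM). Ratios carry exact conditional binomial 95% intervals and levels exact Poisson ones; intervals and the limit set by a count of 0 (3 counts) cover counting error only. Vegfa per vessel count carries an exact conditional odds ratio interval, in place of the planned binomial one. A bead spacing, the unit of distance, is the median gap from a position to its nearest neighbour in that section. The members and lists were chosen with earlier results of these data known. Named are all members, and the 3 highest, 3 lowest and most abundant genes of the pathway, second endothelial and hypoxia lists. The other lists are given mainly as sums. Also named are the 8 genes most like a target (log2 of CPM plus 100 over bins with at least 1000 counts). Other genes named, the patches, their zones and the values outside periovulatory bins were chosen after values were seen. Alternatives varied scaling, bins, lists and quadrants. The code was tested on simulated data and ran in Python 3.11.15 with numpy 2.4.6, scipy 1.17.1, pandas 2.3.3 and matplotlib 3.10.9.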

Additional observations from a re-analysis of the deposited data

Results flagged for a closer look

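Contrasts of Vegfa, Kdr and the vessel sum by position ran in opposite directions in the 2 sections, and none of these differences was tested. Vegfa in bins high in the theca list was 1.79 (1.33 to 2.39) times its level in other bins in the young section and 0.338 (0.227 to 0.485) times in the old. With a list without Aldh1a1 the old value was 0.829, and outside the periovulatory bins it was 0.580 (0.372 to 0.871). Kdr in bins high in the surface epithelium list was at 0.251 (0.0983 to 0.539) in the young and 2.09 (1.29 to 3.29) in the old section. Outside the periovulatory bins the old value of Kdr was 1.47 (0.893 to 2.36), an interval that includes 1. The vessel sum in surface epithelium bins was at 0.568 (0.467 to 0.686) in the young and 1.27 (1.04 to 1.54) in the old section. This contrast of the vessel sum did not hold under other settings. The old value was 0.781 with bins of 3 bead spacings, 0.840 with the third of bins and 0.959 outside the periovulatory bins. The young value was 1.06 with bins of 8 bead spacings. The surface epithelium list itself was 4.72 (4.27 to 5.22) times higher in the old section.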

How the results depend on the processing

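With 1 library per age, no replicate could be left out, and the spread between animals is unknown. No paired analysis was possible because each age has 1 section and the replicate numbers are not shared. Of 130 ratios of single members between the sections under alternatives, 125 stayed within the interval of the main value; Vegfa ran from 2.83 to 5.37. Of 558 contrasts between bins, 432 stayed, 113 moved out of the interval and 13 reversed, and the cause was not tested. A contrast whose main interval excluded 1 is called reversed where the alternative value lay past 1, whatever the interval of that alternative. The placement of single vessel genes was varied only by leaving out the periovulatory bins of the old section.

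Between the sections, equal weight per bin gave 3.43 for Vegfa, 2.01 for Vegfa per vessel count and 2 members lower. Leaving out the old quadrant of high x and low y gave 2.08 per vessel count, and leaving out that of high x and high y gave 3 members lower. Without Egfl7 the vessel sum was at 1.43 and Vegfa per vessel count at 3.41. Without the periovulatory bins of the old section Vegfa was at 2.83, the vessel sum at 2.37 and Vegfa per vessel count at 1.20.

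The tenth or the third of bins was also taken in place of the fifth. In young bins, the vessel sum reversed with bins of 8 bead spacings for macrophage (0.971) and surface epithelium (1.06), and for luteal with bins of 3 bead spacings (0.982) and the tenth of bins (0.981). Vegfa in surface epithelium bins reversed with the tenth of bins (1.12). The vessel sum was at 4.21 for other endothelium (3 bead spacings) and 0.712 for granulosa (the tenth). For theca it was at 2.24 (8 bead spacings), 1.30 (the tenth), 2.16 (the third), 1.47 without low x and high y and 2.36 without high x and high y. For luteal it was at 1.01 without Hsd3b1 and 1.51 without high x and high y.

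In old bins, outside the periovulatory bins, Vegfa reversed for hypoxia (0.806), VEGF pathway (1.04) and pericyte bins (1.13), all with intervals that include 1. The vessel sum reversed there for hypoxia, at 1.37 (1.04 to 1.79), and for surface epithelium, at 0.959 (0.775 to 1.18), an interval that includes 1. The vessel sum in surface epithelium bins also reversed with 3 bead spacings (0.781) and the third of bins (0.840), and Vegfa in granulosa bins with the tenth of bins (0.974). In endothelium bins Vegfa was at 0.836 (3 bead spacings) and 0.864 (outside periovulatory bins), and the vessel sum at 3.20 (3 bead spacings), 3.38 (the tenth) and 3.33 (without Cd34). In hypoxia bins Vegfa was at 4.28 (the tenth), 2.75 (the third), 2.75 without low x and low y, 4.68 without low x and high y and 2.66 without high x and low y. The vessel sum there was at 0.581 (3 bead spacings), 0.376 (8 bead spacings), 0.276 (the tenth), 0.669 (the third) and 0.641 (without Aldoa and Ldha). It was at 0.332 without low x and high y, 0.820 without high x and low y and 0.333 without high x and high y. In periovulatory bins Vegfa was at 2.75 (the third), 2.65 without low x and low y and 3.9996 without low x and high y. The vessel sum there was at 0.228 (the tenth), 0.481 (the third), 0.397 (without Adamts1) and 0.518 without high x and low y. The vessel level within 3 bead spacings of Vegfa was 0.634 without high x and low y. From core to rim, Vegfa was at 1.77 (3 bead spacings), 1.80 (the tenth) and 2.45 (without Adamts1), and the vessel sum at 0.662 (core deeper than 3 bins) and 0.221 without low x and low y.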
